A study of Mus musculus with 40 samples.

Results

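These data describe the retinas of mice with oxygen-induced retinopathy (OIR) that received an antibody against angiopoietin 2 (ANG2), compared with retinas of control mice without OIR, both at postnatal day 19 (P19). The members were chosen by their labels: 4 anti-ANG2 OIR retinas and 4 control (nOIR) retinas, 8 of the 40 libraries in the study, with every gene in the table considered. The study comprised 10 groups of 4 C57BL/6J mouse retinas, each sequenced whole, at P17 and P19. In the OIR groups, pups breathed 75% oxygen from P7 to P12, went back to room air, and received 1 µl of antibody into the vitreous at P14. The anti-ANG2 antibody was clone LC10 at 0.2 µg/µl, and control IgG, which serves for comparison below, at 0.4 µg/µl. Whether eyes of the control mice were injected is not stated in the labels, so the comparison with controls holds the disease, the injection and the antibody together. Each library came from 1 whole retina, and the labels tie no retina to a mouse or litter. The p-values therefore measure the spread between retinas, estimated over all 40 libraries.

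In OIR, high oxygen stops the growth of retinal vessels and removes some of those already formed, and on return to room air the retina without vessels becomes hypoxic, releases VEGFA and grows abnormal vessels. ANG2, made by endothelial cells of remodelling vessels, is a context-dependent antagonist of the endothelial receptor TIE2 (gene Tek), whereas ANG1 (gene Angpt1), made by mural cells, activates it. An antibody that binds ANG2 acts on the protein, so the level of its mRNA does not check the treatment. Total expected counts of the 8 libraries ran from 13700000 to 19200000. The rod photoreceptor gene Cnga1 stood at 465 ± 20.9 CPM (counts scaled to library size) in the controls and 926 ± 157 CPM in the anti-ANG2 retinas (mean ± SD, n = 4 each). By Xist and Y-linked counts, replicates 1 and 2 of both groups were male and replicates 3 and 4 were female, so the sexes were balanced. In replicate 3 of each group the Y-linked gene Ddx3y had a low level beside Xist (1.99 CPM in the control, 4.53 CPM in the anti-ANG2 retina).

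At P19 the anti-ANG2 OIR retinas still differed widely from control retinas. Genes called higher included 19 of 22 of microglia and macrophages, 12 of 26 of the interferon response and antigen presentation and 5 of 16 of pericytes and smooth muscle, and genes called lower included 12 of 20 potassium channels and 8 of 18 of amacrine cells. Of 23495 genes tested with edgeR, 2516 (10.7%) were called at an adjusted p under 0.05, of which 1659 (7.06%) were higher and 857 (3.65%) lower in anti-ANG2 OIR. The median log2 change over all tested genes was -0.06. The libraries of the groups did not overlap for 8.48% of genes on the higher side and 6.77% on the lower side. Leaving out single libraries moved the number of called genes between 1357, without anti-ANG2 replicate 1, and 3242, without anti-ANG2 replicate 4. In whole-retina RNA, a change in the number of cells of a type and a change in RNA per cell cannot be told apart.

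Part of this difference followed transcript length, and it is given first because it touches the gene groups below. Among well-expressed genes divided by length into 8 bins of about equal size, 54.7% of the shortest bin (126 to 1613 bases) were called higher and 0.298% lower, with a median log2 change of 0.63. In the longest bin (6612 bases and more) 1.49% were called higher and 12.3% lower, with a median of -0.29. The shortest bin lay above the control mean by a median log2 of 0.91, 0.73, 0.65 and 0.27 in anti-ANG2 replicates 1 to 4, whereas the controls ran from -0.09 to 0.09. The mitochondrial share of counts was also higher in every anti-ANG2 library, at 1.86%, 1.05%, 1.22% and 1.01% against 0.618% to 0.704% in the controls. A fit with an offset for transcript length, added after seeing the data, called 1736 genes, of which 1327 were also called without it. A fit with the mitochondrial share as a covariate called 180 genes, 162 of them higher. Since this share separates the groups, its part in the result and that of the disease cannot be told apart. Among the 106 genes named by the rule for this report that were called, 29 were called under all 19 alternatives, including both of these, among them Ndufa4l2, Adm, Apln, Lyz2, the 3 C1q genes, Ifitm3, B2m, Edn2, Rgs5 and Grm4.

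**Figure D1:**
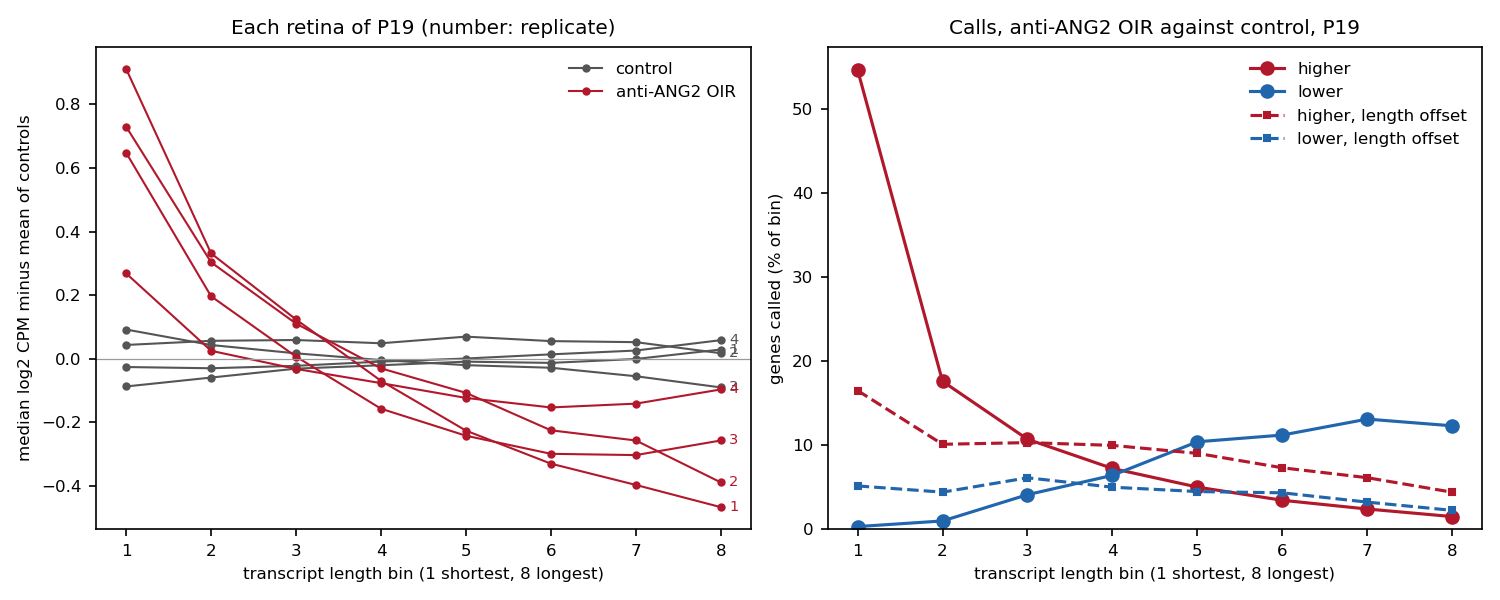
Left, median log2 CPM of each P19 retina minus the mean of the controls, in 8 bins of transcript length from the shortest to the longest; each line is 1 retina, numbered by replicate. Right, the share of genes in each bin called higher or lower in anti-ANG2 OIR (circles) and with an offset for transcript length (squares, dashed lines). The anti-ANG2 retinas fall from left to right, most in replicate 1 and least in replicate 4, while the controls stay near 0, and the share called higher falls from 54.7% to 1.49%.

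Some genes of the response to low oxygen were still raised. Ndufa4l2 (GRCm38 chromosome 10, 127514967 to 127517154), a HIF-induced mitochondrial protein that also marks pericytes, had the smallest p of all genes tested. Its level was 1.53, 2.4, 2.23 and 2.04 CPM in the 4 control retinas and 69.2, 76.7, 57.3 and 34.3 CPM in the 4 anti-ANG2 retinas, which is 28.8-fold higher (log2 fold 4.85, SE 0.30, adjusted p = 2.4e-15). The groups were far apart, although replicate 4 was the lowest of the anti-ANG2 retinas. Adm (chromosome 7, 110627661 to 110629820), which encodes the vasodilator adrenomedullin, stood at 1.53, 1.31, 0.062 and 0.255 CPM in controls and 11.5, 10.1, 13.3 and 4.6 CPM in anti-ANG2 retinas. It rose 12.5-fold (adjusted p = 2.2e-06), and replicate 4 was again the lowest of its group. The list of hypoxia and HIF targets had 28 tested members, of which 7 were called higher and 0 lower, against 7.06% of all genes called higher. The other 5 were Higd1a, a mitochondrial survival factor (1.73-fold, adjusted p = 0.001), the lipid droplet gene Hilpda (1.89-fold, adjusted p = 0.0012), Stc2, Bnip3l and Ldha. The median of the list was only 0.07 on the log2 scale, beside -0.06 for all genes, and 15 of the 28 had a positive change. With the mitochondrial covariate 2 members were called higher, and limma-trend on log2(TPM + 1), where the median of all genes lay at -0.31, called 2 higher and 9 lower. Glycolysis was not raised as a group: 1 of 18 genes was called higher, Ldha, which encodes lactate dehydrogenase A (1.41-fold, adjusted p = 0.04), and 2 were called lower, the hexokinase Hk2 (0.609-fold) and the muscle-type phosphofructokinase Pfkm (0.646-fold). Over all genes 7.06% were called higher and 3.65% lower. On the TPM scale the change of Ldha had the opposite sign. With the length offset Ldha (1.17-fold, adjusted p = 0.23) and Hilpda (1.14-fold, adjusted p = 0.52) were not called. Higd1a kept its call there (1.56-fold, adjusted p = 0.00038).

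HIF binds DNA at sites with the core ACGTG or GCGTG. This core was searched on both strands in RefSeq promoter windows (GRCm38.p6, from 250 bases before to 50 bases after the start) and occurred in 43.8% of all 32851 windows. Of the 7 called hypoxia genes 5 had a window, and all 5 held a core, as did 20 of the 24 tested members with a window (83.3%). The list was drawn up as hypoxia and HIF targets, so this share describes the list rather than the retinas compared. The promoters of Adm and of Edn2, an endothelin gene described below that is on no hypoxia list here, are shown. Lyz2, Adm, Edn2 and Cd300c2 had the smallest p among the called genes searched that had a window. Of these, only the windows that held a core are printed, so the choice rests on the match itself. The 250 bases before the start are printed, with the core in capitals as read on the printed strand (CACGC is GCGTG on the other strand). Ndufa4l2 had no entry. The windows of Lyz2, Cd300c2 and Ms4a7, also among the 10 genes with the largest rise, held no core. A match describes letters in the window and does not show binding.
Adm, chr7:110627407-110627656, plus strand: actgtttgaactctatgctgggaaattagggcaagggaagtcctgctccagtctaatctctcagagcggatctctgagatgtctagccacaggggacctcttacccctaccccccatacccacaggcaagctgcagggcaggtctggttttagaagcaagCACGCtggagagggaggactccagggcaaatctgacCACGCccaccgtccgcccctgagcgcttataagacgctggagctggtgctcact
Edn2, chr4:120160956-120161205, plus strand: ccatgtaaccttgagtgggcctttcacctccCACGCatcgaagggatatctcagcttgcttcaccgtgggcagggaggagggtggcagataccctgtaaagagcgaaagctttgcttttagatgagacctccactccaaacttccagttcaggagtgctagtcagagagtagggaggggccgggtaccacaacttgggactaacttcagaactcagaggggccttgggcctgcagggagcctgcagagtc

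The list of VEGF and angiopoietin ligands and receptors, the pathways on which the antibodies of this study act, held no gene called by edgeR at P19. Genes that respond to these pathways are not part of this list. Angpt2 itself stood at 4.14, 3.43, 4.84 and 4.99 CPM in controls and 2.19, 4.04, 3.96 and 2.93 CPM in anti-ANG2 retinas, a fold of 0.754 (log2 fold -0.41, SE 0.40, adjusted p = 0.65), and the groups overlapped. Tek, the gene of its receptor, was low, at 1.4, 0.871, 0.434 and 2.04 CPM in controls and 0, 0.126, 0 and 4.18 CPM in anti-ANG2 retinas (fold 0.918, adjusted p = 0.98). Anti-ANG2 replicate 4 carried nearly all of the Tek counts of its group. Vegfa, the hypoxia-driven growth factor for vessels, stood at 109, 106, 84 and 95 CPM in controls and 105, 128, 143 and 176 CPM in anti-ANG2 retinas, a fold of 1.4 (adjusted p = 0.12). Its ranges overlapped, and it passed the threshold with the length offset (adjusted p = 0.045) and had the opposite sign on the TPM scale. The VEGF receptors Kdr (fold 0.798, adjusted p = 0.44) and Flt1 (fold 0.817, adjusted p = 0.41) and the ANG1 gene Angpt1 (fold 2.04, adjusted p = 0.36) did not pass either. Of all 17 tested VEGF and angiopoietin ligands and receptors, 0 were called by edgeR, while limma-trend on TPM called 4 lower. At an unadjusted p under 0.05 in edgeR, which 22.3% of all genes passed, 1 was higher and 1 lower.

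Of 25 pan-endothelial genes, 5 were called higher and 0 lower, with a median log2 change of 0.74. The tight junction gene Cldn5 stood at 3.44, 4.14, 5.89 and 3.16 CPM in controls and 12.4, 11.6, 10.1 and 7.64 CPM in anti-ANG2 retinas, 2.51-fold higher (adjusted p = 0.0031), and the groups did not overlap. Ecscr, an endothelial surface protein, rose 3.37-fold (adjusted p = 0.009), the sialomucin Cd34 2.11-fold (adjusted p = 0.019) and the secreted vessel factor Egfl7 1.89-fold (adjusted p = 0.024). Emcn was the fifth. In contrast, the adhesion molecule Pecam1 was at 2.32 ± 0.561 CPM in controls and 1.59 ± 0.288 CPM in anti-ANG2 retinas (fold 0.688, adjusted p = 0.63), and the diaphragm gene Plvap at 4.39 ± 0.835 and 4.23 ± 1.49 CPM (fold 0.964, adjusted p = 0.97). With the length offset 2 of the 25 were called and with the mitochondrial covariate 0, while limma-trend on TPM called 2 higher and 3 lower. Among 21 genes of tip cells and neovascular endothelium, 2 were called higher, Adm and Apln, against 7.06% of all genes. The median log2 change of this list was -0.05, and 11 of the 21 had a negative change. Apln (chromosome X, 48025146 to 48034853), which encodes the peptide apelin made by sprouting endothelial cells, stood at 5.29, 1.8, 5.83 and 2.9 CPM in controls and 22.8, 40.3, 18.1 and 22.4 CPM in anti-ANG2 retinas. It rose 6.59-fold (adjusted p = 1.4e-06) and all anti-ANG2 retinas exceeded all controls. Esm1, another tip cell gene, was below 2 CPM in every library (fold 1.35, adjusted p = 0.91). Of 14 genes of the blood-retina barrier, Cldn5 was called higher, against 7.06% of all genes. The junction scaffold Tjp1 (0.589-fold, adjusted p = 0.01) and the proteoglycan Spock2 (0.548-fold, adjusted p = 0.00095) were called lower, against 3.65% of all genes. Cldn5, Tjp1 and Spock2 all lost the call with the mitochondrial covariate. With the length offset Spock2 kept it, and Cldn5 (adjusted p = 0.051) and Tjp1 (adjusted p = 0.084) did not. Tjp1 also lost it without anti-ANG2 replicate 2. None of 15 Norrin and Wnt genes was called by edgeR, and limma-trend on TPM called 3 lower. At an unadjusted p under 0.05 in edgeR, which 22.3% of all genes passed, 1 was higher and 2 lower.

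**Figure D2:**
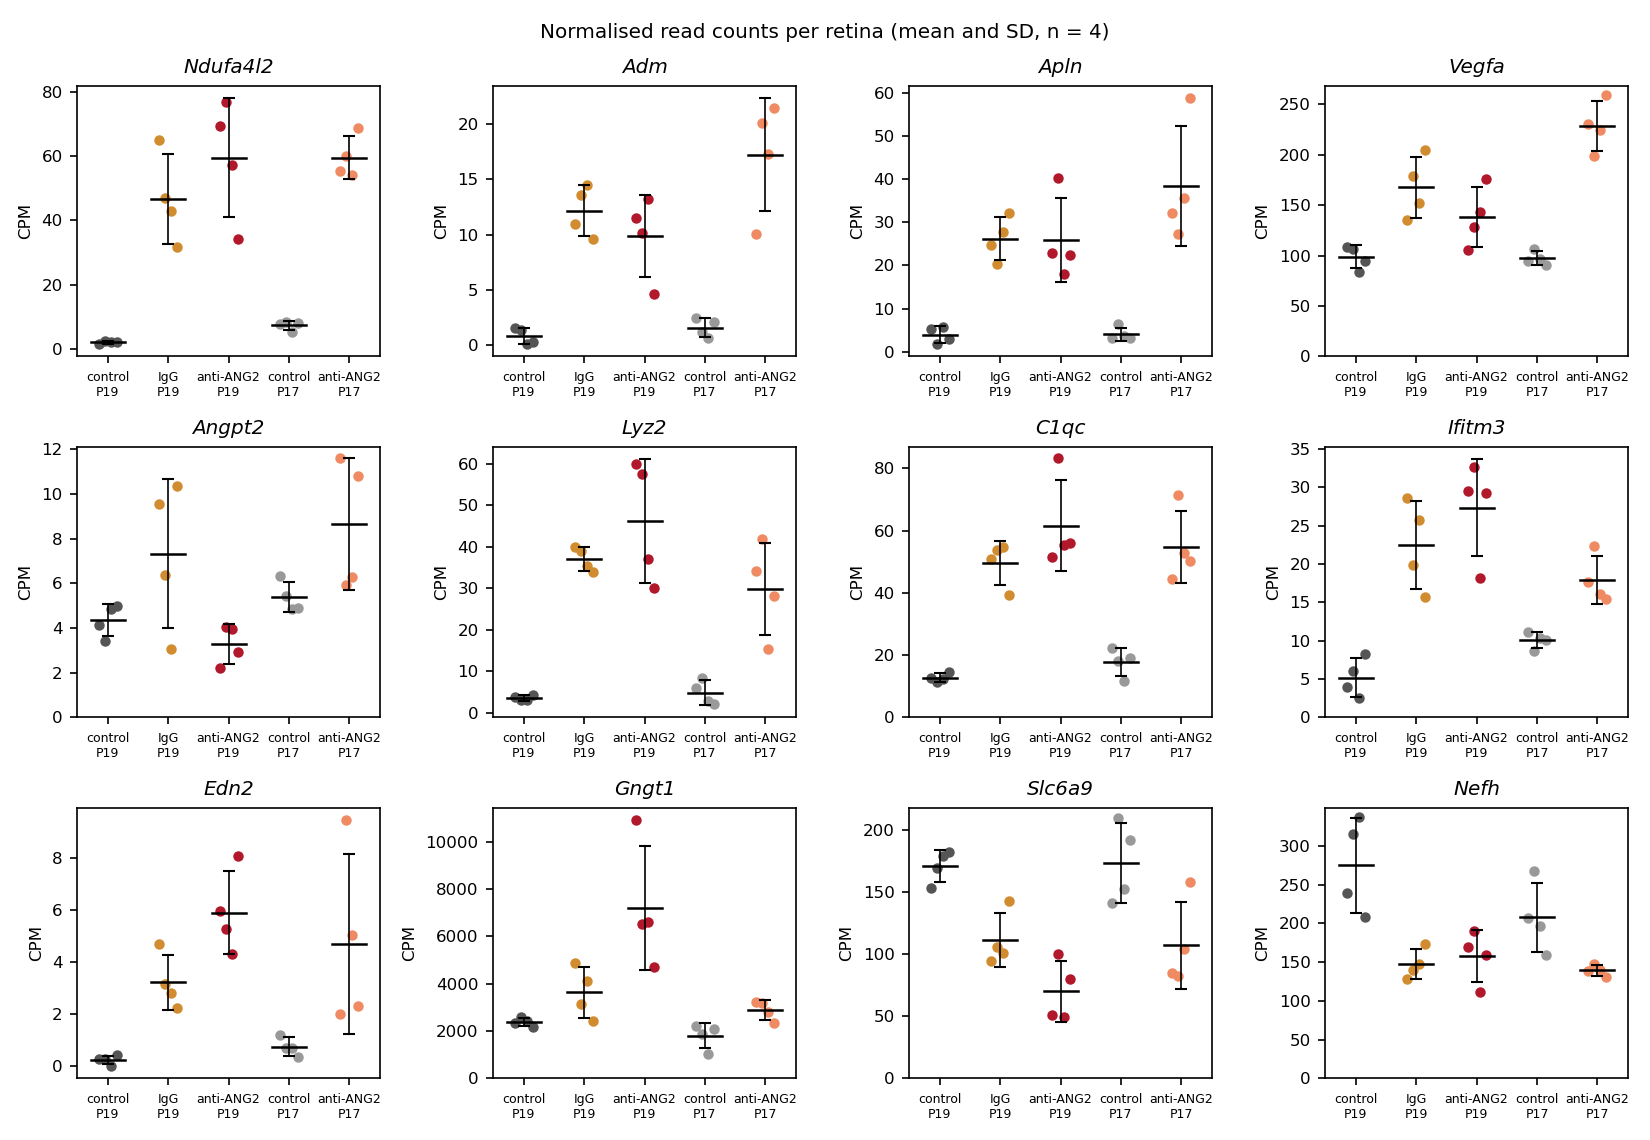
Normalised read counts (CPM) of 12 genes, each point 1 retina, with the mean (horizontal line) and SD (error bar) of each group of 4. Groups from left to right are control P19, IgG OIR P19, anti-ANG2 OIR P19, control P17 and anti-ANG2 OIR P17. Ndufa4l2, Adm, Apln, Lyz2, C1qc, Ifitm3 and Edn2 show no overlap between anti-ANG2 OIR and control at P19, whereas Angpt2 and Vegfa do overlap.

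Genes of the mural cells that cover vessels came next. Of 16 pericyte and smooth muscle genes, 5 were called higher and 0 lower, with a median log2 change of 1.3. The list did not move as 1: 10 members had a positive change and 6 a negative one. The pericyte genes Pdgfrb (ratio of mean CPM 0.543) and Abcc9 (0.553) were among the 6 and were not called. Higd1b, a pericyte marker, stood at 1.02, 1.69, 1.55 and 2.34 CPM in controls and 18.6, 14.8, 11 and 10.8 CPM in anti-ANG2 retinas and was 8.29-fold higher (log2 fold 3.05, SE 0.33, adjusted p = 6.7e-08). Rgs5, a regulator of G-protein signalling in pericytes, stood at 44.5, 51.9, 36.7 and 44.5 CPM in controls and 140.2, 109, 111 and 57.1 CPM in anti-ANG2 retinas (2.35-fold, adjusted p = 0.00014). In both genes every anti-ANG2 retina lay above every control. Smooth muscle actin, Acta2, rose 3.58-fold (adjusted p = 0.0034), but control replicate 4 reached the level of the lowest anti-ANG2 retinas. Kcnj8, a potassium channel subunit of pericytes, and Ndufa4l2 were the other called members. The count was 5 with the length offset and 3 with the mitochondrial covariate, and limma-trend on TPM called 4 higher and 1 lower. Of 22 matrix and collagen genes, 2 were called, both higher, against 7.06% of all genes called higher. The median log2 change of the list was -0.08. Mgp, an inhibitor of calcification found in vessel walls, rose from 3.64 ± 1.1 to 17.2 ± 2.75 CPM (4.72-fold, adjusted p = 1.5e-06). The collagen-binding protein Sparc rose 1.55-fold (adjusted p = 0.03). Sparc lost its call in 7 of 19 alternatives, 5 of them without single libraries. The metalloproteinase inhibitor Timp1 rose 12.2-fold from a level near 0 (adjusted p = 0.0066), with 1 anti-ANG2 retina within the range of the controls, while the metalloproteinase Mmp9 fell to 0.443-fold (adjusted p = 0.0052).

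Microglia and macrophage genes had the largest share of called members among the 39 lists. Of 22 tested, 19 were called higher and 0 lower, and all 22 had a positive change, with a median log2 of 2.04. Lyz2, which encodes lysozyme of myeloid cells, stood at 3.7, 3.0, 3.1 and 4.33 CPM in controls and 60, 57.6, 37 and 30 CPM in anti-ANG2 retinas (13-fold, log2 fold 3.70, SE 0.36, adjusted p = 4.9e-09). Tyrobp, the signalling adaptor of TREM2, stood at 3.76, 4.79, 5.64 and 4.84 CPM in controls and 39.6, 37.4, 31 and 25.6 CPM in anti-ANG2 retinas (7.01-fold, adjusted p = 6.4e-08). For both genes the lowest anti-ANG2 retina was several times above the highest control. Aif1, which encodes the microglial marker IBA1, rose 7.59-fold (adjusted p = 0.00017). The count was 19 with the length offset, 15 with the mitochondrial covariate and 17 with limma-trend on TPM.

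Of the 10 genes with the largest rise by the naming rule, 5 belong to myeloid cells: Lyz2, Lilrb4a, Ms4a7, Ms4a6d and Cd300c2. Lilrb4a, an inhibitory receptor, had 1 read in the 4 controls and 304 in the 4 anti-ANG2 retinas, and the ratio of 366, corrected for library size, had a 95% interval of 65.2 to 14500 for counting error alone. Ms4a7, a macrophage membrane protein, stood at 0.446, 1.25, 0.186 and 0.153 CPM in controls and 6.94, 6.13, 6.02 and 5.2 CPM in anti-ANG2 retinas (11.7-fold, adjusted p = 0.00088). Its relative Ms4a6d rose 8.51-fold (adjusted p = 0.00037), and Cd300c2, a myeloid surface receptor, rose 9.34-fold (adjusted p = 0.00082). Ms4a6d and Cd300c2 were the least even, since their anti-ANG2 values ran from 3.16 to 10.3 CPM and from 1.9 to 7.39 CPM.

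Of 11 genes of homeostatic microglia, 3 were called higher and 0 lower. These were the fractalkine receptor Cx3cr1 (2.5-fold, adjusted p = 0.0018), the purine receptor P2ry12 (2.67-fold, adjusted p = 0.003) and the Fc receptor-like gene Fcrls (3.63-fold, adjusted p = 0.0038). Of 20 genes of activated microglia, 9 were called higher and 0 lower, with a median log2 change of 0.69. Trem2, the lipid-sensing receptor that marks this state, stood at 3.57, 3.87, 3.85 and 1.43 CPM in controls and 21.2, 17.8, 9.31 and 18 CPM in anti-ANG2 retinas (5.23-fold, adjusted p = 5.5e-06). Lgals3, which encodes galectin 3, rose 4.2-fold (adjusted p = 0.00021), and the fatty acid carrier Fabp5 1.89-fold (adjusted p = 0.0067). Cx3cr1, Trem2 and Tyrobp, another called gene of the activated list, also count in the microglia and macrophage list. Without anti-ANG2 replicate 1, 5 of the 20 activated genes were called higher. The mitochondrial covariate gave 3 of 20 activated and 1 of 11 homeostatic genes, and limma-trend on TPM called 5 activated genes higher and 2 lower and 1 homeostatic gene higher.

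The complement list held 5 called genes of 14, all higher, with a median log2 change of 1.32. The 3 subunits of C1q, the recognition part of the classical pathway, were all called and also count in the microglia and macrophage list. C1qa rose 3.73-fold (adjusted p = 1.9e-07) and C1qb 4.33-fold (adjusted p = 6.7e-08). C1qc stood at 12.5, 11.4, 12.3 and 14.7 CPM in controls and 51.6, 83.3, 55.2 and 56.1 CPM in anti-ANG2 retinas (4.84-fold, adjusted p = 4.7e-09). C3ar1, a receptor for activated C3, rose 5.0-fold (adjusted p = 0.00058), and C5ar1, the receptor for activated C5, was the fifth. With the mitochondrial covariate the 3 C1q genes kept their call and C3ar1 lost it (adjusted p = 0.13).

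Of 16 cytokine and chemokine genes, 3 were called higher and 1 lower, against 7.06% and 3.65% of all genes. Ccl12, a ligand that draws monocytes, stood at 0.765, 0.49, 0.124 and 0.153 CPM in controls and 6.11, 2.46, 3.05 and 2.45 CPM in anti-ANG2 retinas (9.07-fold, adjusted p = 0.0029). Ccl7 had no count in any control, so its rise is a lower bound of at least 16.3-fold, with 3 reads over the control group as the floor. Ccl4 had 2 counts in the controls and 40 in the anti-ANG2 retinas, a ratio of 24.1 with a 95% counting interval of 6.25 to 206. Ccl2 had 2 and 24 counts and did not pass the test (adjusted p = 0.19). Cx3cl1, the neuronal ligand of the Cx3cr1 receptor, fell from 106 ± 23.1 to 56.2 ± 10.5 CPM (0.53-fold, adjusted p = 0.0025). With the length offset, none of the 3 chemokines was called higher and Cx3cl1 was the 1 called member of the 16 tested. Of 16 markers of neutrophils and lymphocytes, 6 passed the filter on low counts and 0 were called.

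**Figure D3:**
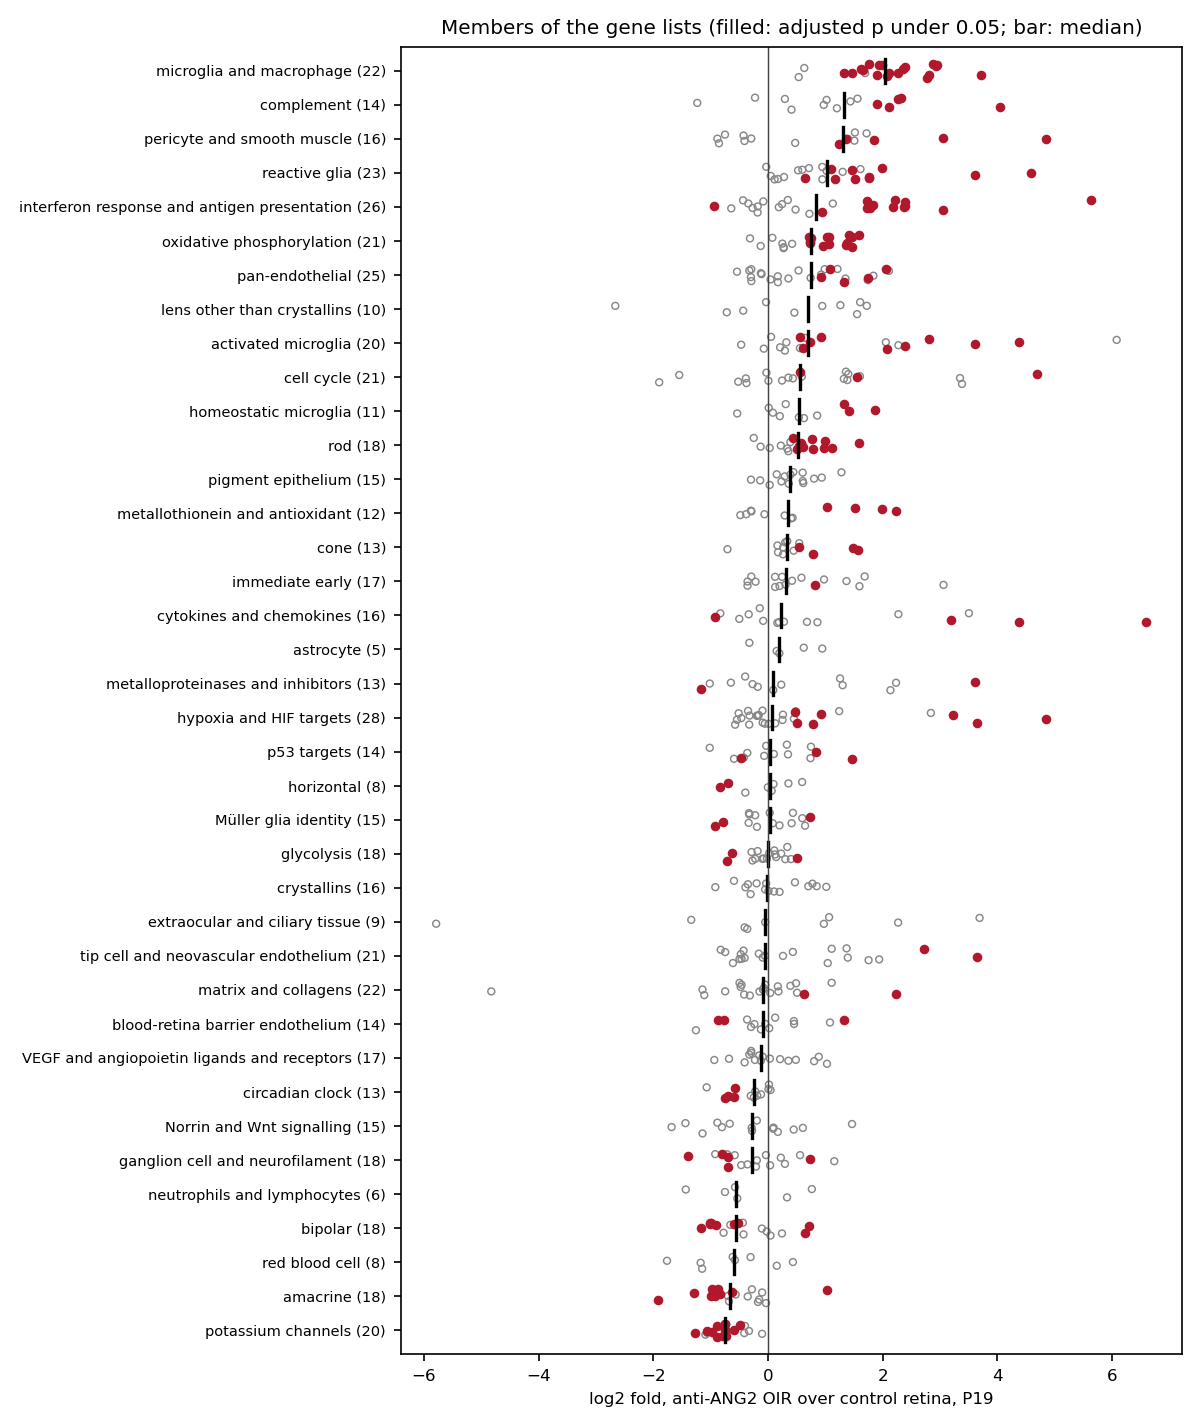
Log2 fold of anti-ANG2 OIR over control at P19 for the tested members of each gene list (number tested in brackets), ordered by the list's median (black bar). Filled points passed an adjusted p under 0.05 in edgeR and open points did not. The microglia and macrophage list, with 19 of 22 filled, stands at the top and the potassium channels, with 12 of 20 filled on the lower side, at the bottom.

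Genes of the interferon response and of antigen presentation were raised in part. Of 26 tested, 12 were called higher and 1, Stat2, lower, with a median log2 change of 0.83. Ifitm3, an antiviral membrane protein, stood at 4.02, 5.99, 2.48 and 8.25 CPM in controls and 29.5, 32.6, 18.1 and 29.2 CPM in anti-ANG2 retinas (5.25-fold, log2 fold 2.39, SE 0.30, adjusted p = 1.2e-06). B2m (chromosome 2, 122147686 to 122153083), the light chain of class I antigen-presenting molecules, stood at 23.6, 29.3, 34.9 and 41.6 CPM in controls and 127, 128, 91 and 101 CPM in anti-ANG2 retinas (3.45-fold, adjusted p = 2.2e-06). The groups were well apart for both genes. Bst2, the antiviral protein tetherin, rose 5.17-fold (adjusted p = 7e-05) and Ifitm2 3.3-fold (adjusted p = 0.00012). Ifi27l2a, an interferon-induced gene on no list here, stood at 0.382, 0.163, 0.496 and 1.02 CPM in controls and 16, 11.2, 7.42 and 8.84 CPM in anti-ANG2 retinas and rose 20.7-fold (adjusted p = 1.1e-06). The list count was 10 higher and 0 lower with the length offset, 4 higher with the mitochondrial covariate, and 8 higher and 1 lower with limma-trend on TPM.

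The interferon-stimulated response element was searched as GAAA followed by any 2 bases and a further GAAA, on both strands of the same RefSeq windows and occurred in 3.44% of all of them. Of the 12 called members of the interferon list 10 had a window, and 6 of these (60%) held the motif, as did 10 of 22 tested members with a window (45.5%). The list was drawn up for the interferon response and antigen presentation, so this share describes the list rather than the retinas compared. Ifitm3 and B2m had the smallest p among the called members with a window. Of these, only B2m held a match before the start, and its promoter is printed, so the choice rests on the match itself. The Ifitm3 window held 2 matches, both after the start of the gene, which are not printed.
B2m, chr2:122147437-122147686, plus strand: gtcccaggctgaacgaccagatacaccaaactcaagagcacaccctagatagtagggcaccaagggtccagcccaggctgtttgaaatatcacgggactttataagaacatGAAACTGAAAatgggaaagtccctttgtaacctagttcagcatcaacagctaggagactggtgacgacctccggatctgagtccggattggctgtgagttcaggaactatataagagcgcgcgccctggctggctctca

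Reactive glia genes were higher in part, without a call for their best known marker. Of 23 tested, 10 were called higher and 0 lower, with a median log2 change of 1.02. Edn2 (chromosome 4, 120161206 to 120167360), which encodes an endothelin released by stressed photoreceptors, stood at 0.255, 0.272, 0 and 0.407 CPM in controls and 5.96, 5.24, 4.29 and 8.06 CPM in anti-ANG2 retinas (24.1-fold, log2 fold 4.59, SE 0.85, adjusted p = 0.00021). The metallothioneins, which bind zinc and copper, rose with it: Mt1 from 99.7 ± 28.4 to 286 ± 99.7 CPM (2.87-fold, adjusted p = 4.3e-05) and Mt2 from 11.6 ± 4.7 to 46.2 ± 14.4 CPM (3.97-fold, adjusted p = 6.9e-06). S100a6, a calcium-binding protein of reactive glia, rose 3.39-fold (adjusted p = 0.0001). Gfap, the intermediate filament of astrocytes and reactive Müller glia, stood at 72.7, 40.2, 47.6 and 112 CPM in controls and 143, 181, 79.5 and 121 CPM in anti-ANG2 retinas, a fold of 1.93 that did not pass (adjusted p = 0.077). The Gfap values overlapped because control replicate 4 was high and anti-ANG2 replicate 3 low. The list count was 7 with the length offset, 5 with the mitochondrial covariate, 6 without anti-ANG2 replicate 1, and 6 higher and 1 lower with limma-trend on TPM. The oxidative stress gene Hmox1, heme oxygenase 1, rose 4.67-fold (adjusted p = 0.0014), and the cell cycle inhibitor Cdkn1a, a target of p53, 2.77-fold (adjusted p = 0.00017). Among 15 Müller glia identity genes, Apoe was called higher (1.67-fold, adjusted p = 0.018), against 7.06% of all genes. Abca8a (0.525-fold, adjusted p = 0.00046) and Dkk3 (0.577-fold, adjusted p = 0.022) were called lower, against 3.65% of all genes. Apoe, Abca8a and Dkk3 all lost the call with the mitochondrial covariate. Apoe also lost it with the length offset (1.22-fold, adjusted p = 0.345), with limma-trend on TPM and without 2 single libraries, and Dkk3 without 4.

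Photoreceptor genes and nuclear genes of the respiratory chain were called higher on the CPM scale. Of 18 rod genes, 11 were called higher and 0 lower, with a median log2 change of 0.52. Gngt1, the gamma subunit of rod transducin, stood at 2353, 2594, 2439 and 2187 CPM in controls and 10930, 6521, 6615 and 4723 CPM in anti-ANG2 retinas (3.01-fold, adjusted p = 3.3e-05). Cnga1, the rod cation channel, rose 1.99-fold (adjusted p = 4e-05). Of 13 cone genes, 4 were called higher and 0 lower, led by the transducin subunit Gngt2 (2.97-fold, adjusted p = 1.8e-05) and the phosphodiesterase subunit Pde6h (2.81-fold, adjusted p = 7.2e-05). Of 21 genes of oxidative phosphorylation, 14 were called higher and 0 lower, with a median of 0.75. Ndufa2, a short gene of complex I, stood at 130.4, 153, 145 and 144 CPM in controls and 648, 409, 374 and 290 CPM in anti-ANG2 retinas (3.0-fold, adjusted p = 1e-05). In Gngt1 and Ndufa2 alike, anti-ANG2 replicate 1 was the highest and replicate 4 the lowest, the order seen in the shortest length bin. With the length offset, 9 rod, 3 cone and 11 oxidative phosphorylation genes were called higher. With the mitochondrial covariate these counts were 0, 0 and 2. Limma-trend on TPM called 4 rod genes higher and 5 lower, 2 cone genes higher, and 10 genes of oxidative phosphorylation higher and 6 lower, and without anti-ANG2 replicate 1 the rod count was 5.

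Among genes of inner retinal neurons, most calls were on the lower side, whereas over all genes 7.06% were called higher and 3.65% lower. Of 18 bipolar cell genes 7 were called lower and 2 higher, with a median log2 change of -0.56. Grm6, the glutamate receptor of ON bipolar cells, stood at 99.2, 129.9, 93.9 and 108 CPM in controls and 42.7, 40.8, 49 and 79.8 CPM in anti-ANG2 retinas and fell to 0.494-fold (adjusted p = 0.0084), and Scgn, a calcium sensor of cone bipolar cells, to 0.692-fold (adjusted p = 0.0032). The 2 higher members were Gng13 and Pcp2, and the change of Gng13 had the opposite sign with the length offset and on the TPM scale. Of 18 amacrine genes 8 were called lower and 1 higher. Slc6a9, the glycine transporter of glycinergic amacrine cells, stood at 154, 169.5, 179 and 182 CPM in controls and 50.6, 100.1, 49.2 and 79.8 CPM in anti-ANG2 retinas (0.409-fold, adjusted p = 0.00016). Slc17a8, which encodes the vesicular glutamate transporter VGLUT3, fell to 0.265-fold (adjusted p = 0.0015). The higher member was Npy, a neuropeptide gene (2.04-fold, adjusted p = 0.0036), whose sign turned with the length offset. The groups did not overlap for Grm6 and Slc6a9.

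Of 18 genes of ganglion cells and neurofilaments, 4 were called lower and 1 higher. Nefh, the heavy neurofilament chain of large axons, stood at 239, 315, 337 and 208 CPM in controls and 169, 190.2, 111 and 159.5 CPM in anti-ANG2 retinas (0.573-fold, adjusted p = 0.0089). Nefl, the light chain, fell to 0.614-fold (adjusted p = 0.029), and Isl2, a transcription factor of ganglion cells, to 0.381-fold (adjusted p = 0.0025). Sncg, which encodes gamma-synuclein of ganglion cells, was called higher (1.67-fold, adjusted p = 0.021), and its sign turned with the length offset. The Nefh values of the groups did not overlap. With the length offset 5 bipolar, 7 amacrine and 4 ganglion cell genes were called lower, with the mitochondrial covariate 1, 0 and 0, and without anti-ANG2 replicate 1, 3, 3 and 2. Limma-trend on TPM called 14, 14 and 10 of them lower.

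Potassium channel genes had the most negative median of the lists, -0.75 on the log2 scale. All 20 tested members had a negative change, 12 were called lower and 0 higher, against 3.65% of all genes called lower. Kcnj9, a G-protein-gated channel subunit, stood at 87.3, 99.3, 85 and 96.6 CPM in controls and 23, 42.9, 37 and 49.1 CPM in anti-ANG2 retinas (0.413-fold, adjusted p = 0.00011). Kcnab3, an auxiliary subunit, fell to 0.48-fold (adjusted p = 0.00022), and Kcnc1, a channel of fast-spiking neurons, to 0.595-fold. Here 4 members were called lower with the length offset and 0 with the mitochondrial covariate, while limma-trend on TPM called 18. Of 13 circadian clock genes 4 were called lower (0 with the mitochondrial covariate, 8 with limma-trend on TPM), among them the clock repressors Nr1d1 (0.616-fold, adjusted p = 0.0092) and Nr1d2 (0.595-fold, adjusted p = 0.0038). The times of day at which the retinas were taken are not given in the sources used here.

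The 10 genes with the largest fall by the naming rule were led by receptors and regulators of signalling. Grm4, a presynaptic glutamate receptor, stood at 7.14, 6.04, 6.45 and 8.86 CPM in controls and 0.453, 1.26, 1.24 and 2.21 CPM in anti-ANG2 retinas (0.184-fold, log2 fold -2.45, SE 0.45, adjusted p = 0.00017). The orphan receptor Gpr61 stood at 13.9, 17.7, 14 and 15.2 CPM in controls and 0.83, 1.39, 5.11 and 6.33 CPM in anti-ANG2 retinas (0.225-fold, adjusted p = 0.0007). Sgsm1, a regulator of small G proteins, fell to 0.235-fold (adjusted p = 0.00017), with replicate 1 the lowest at 1.06 CPM and replicate 4 the highest at 8.36 CPM. The other 7 were the sulfotransferase Chst15 (0.242-fold, adjusted p = 0.029), Tmem132b (0.259-fold), Slc17a8, the cilium gene Evc (0.268-fold, adjusted p = 0.017), the glycogen-binding gene Stbd1 (0.276-fold, adjusted p = 0.029), the inositol phosphatase Inpp5j (0.279-fold) and Mypn (0.283-fold, adjusted p = 0.035). Of 19 alternatives, Chst15 lost its call in 8, Stbd1 and Mypn in 7 each and Evc in 3, some of them without single libraries. Gpr61, Sgsm1, Tmem132b, Slc17a8 and Inpp5j lost it with the mitochondrial covariate alone, whereas Grm4 kept it in all.

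**Figure D4:**
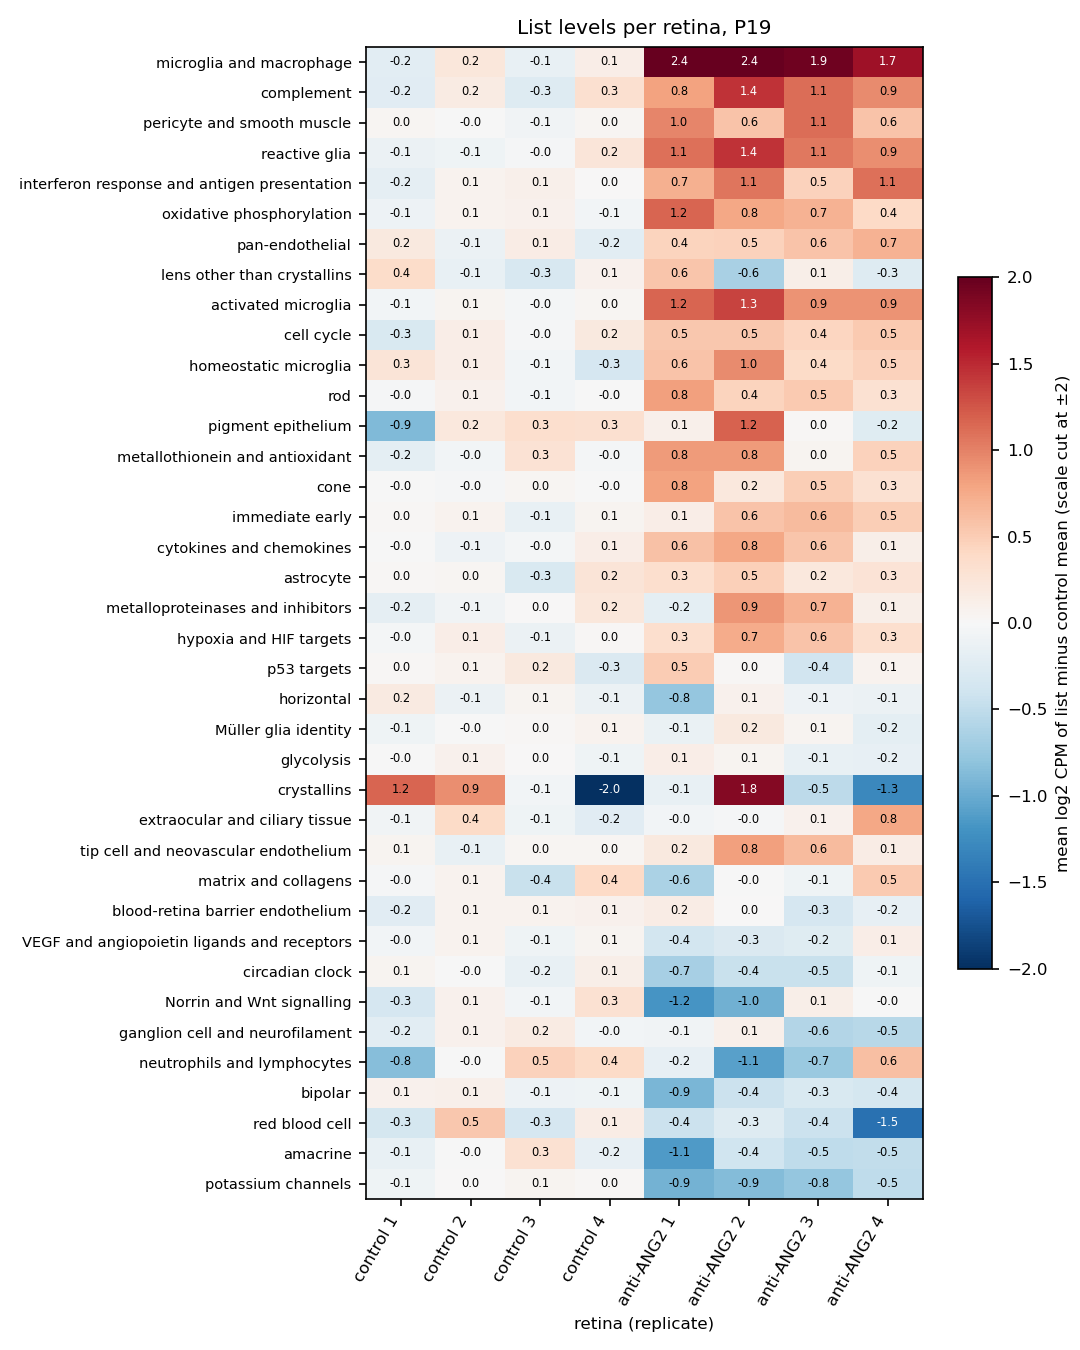
Mean log2 CPM of each gene list in each P19 retina, minus the mean of the 4 controls; red is above and blue below the control mean, with the value in each cell, and colours stop at 2 above and below. The microglia and macrophage list is raised in all 4 anti-ANG2 retinas, while pigment epithelium and crystallin lists vary between retinas of both groups.

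RNA of neighbouring tissue varied between retinas at P19. Of 15 pigment epithelium genes 0 were called, although 13 had a positive change (median log2 0.39), and Rpe65, its retinoid isomerase, stood at 36.2, 77.3, 64 and 118 CPM in controls and 90.3, 266, 80.8 and 79.2 CPM in anti-ANG2 retinas (fold 1.75, adjusted p = 0.35), with replicate 2 far above the others. Of 16 crystallins 0 were called, and Cryaa ran from 1.32 to 32 CPM in controls and from 4.24 to 44.4 CPM in anti-ANG2 retinas. Genes of red blood cells also gave 0 calls of 8 by edgeR, with 6 negative and a median log2 change of -0.60, although the length offset called 4 of them lower and limma-trend on TPM 6. At an unadjusted p under 0.05, which 22.3% of all genes passed, 2 pigment epithelium, 0 crystallin and 4 red blood cell genes passed.

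Against OIR retinas treated with control IgG at the same age, few genes differed. Of the 23495 genes, 23 (0.0979%) were called, 4 (0.017%) higher and 19 (0.0809%) lower in anti-ANG2 retinas, with 2935 at an unadjusted p under 0.05. This count was 5 without anti-ANG2 replicate 1, 439 without anti-ANG2 replicate 4, 557 with DESeq2 and 1 in a fit to these groups alone. By Xist, 0 of the 4 IgG retinas and 2 of the 4 anti-ANG2 retinas were female, and a fit with Y-linked counts as a covariate called 26 genes. Scgn was at 188 ± 14.7 CPM in controls, 225 ± 18.9 CPM with IgG and 129.8 ± 14.5 CPM with anti-ANG2 (mean ± SD, n = 4 each, 0.576-fold of IgG, adjusted p = 0.0032). It was thus called lower in anti-ANG2 retinas than in either other group. Ip6k2, an inositol hexakisphosphate kinase, was higher than in both: 31.8, 31.9, 37.1 and 37.8 CPM in controls, 45.2 ± 5.16 CPM with IgG and 74.2, 61, 83.1 and 70.9 CPM in the anti-ANG2 retinas (2.08-fold of control, adjusted p = 2.2e-06, and 1.6-fold of IgG, adjusted p = 0.025). Grm4 was at 5.33 ± 3.84 CPM with IgG (0.245-fold, adjusted p = 0.046), and the neuronal leucine-rich repeat gene Lrrn3 was 0.427-fold of IgG (adjusted p = 0.0034).

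Several genes with a large rise over control did not pass against IgG. Ndufa4l2 was at 46.6 ± 13.9 CPM with IgG and 59.4 ± 18.5 CPM with anti-ANG2 (1.28-fold, adjusted p = 0.59), and Apln at 26.2 ± 5.05 and 25.9 ± 9.83 CPM (0.988-fold, adjusted p = 0.99). Lyz2 was at 37 ± 2.91 and 46.2 ± 14.9 CPM (1.25-fold, adjusted p = 0.74), and Ifi27l2a at 3.51 ± 1.85 and 10.9 ± 3.76 CPM (3.1-fold, adjusted p = 0.15). Angpt2 stood at 7.33 ± 3.34 CPM with IgG and 3.28 ± 0.887 CPM with anti-ANG2, a fold of 0.448 that did not pass (adjusted p = 0.19), and Vegfa at 168 ± 30.4 and 138 ± 29.6 CPM (fold 0.823, adjusted p = 0.60). With 4 retinas a group, a p that misses the threshold does not show that these levels are alike. Of the 39 lists, bipolar cells were the 1 list with members called against IgG, 2 of 18, both lower. At an unadjusted p under 0.05, which 12.5% of all genes passed, 15 of 18 rod genes and 14 of 21 genes of oxidative phosphorylation were higher than with IgG, and all 15 Müller glia genes had a negative change. Beside this, the mitochondrial share was 0.461% to 0.753% in the IgG retinas, below every anti-ANG2 retina. The median log2 change against IgG ran from 0.28 in the shortest length bin to -0.17 in the longest. With the length offset 45 genes were called against IgG and with the mitochondrial covariate 1, and since the share separates these groups, its part and that of the antibody cannot be told apart.

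At P17, 2 days earlier, the same comparison used other retinas and called 224 genes (0.953%), 208 (0.885%) higher and 16 (0.0681%) lower. Of the 208 higher genes, 101 were also called higher at P19, which is 48.6% of the P17 genes and 6.09% of the P19 genes. Ndufa4l2 was 8.11-fold over control at P17 (adjusted p = 5.6e-10), Adm 11.2-fold, Apln 9.28-fold (adjusted p = 1.7e-07) and C1qb 4.08-fold (adjusted p = 4e-07). Microglia and macrophage genes were called for 11 of 22 at P17 and complement genes for 7 of 14. Vegfa was higher at P17 (2.35-fold, adjusted p = 0.00028), from 97.1 ± 6.89 to 228 ± 24.9 CPM, as was Gfap (4.67-fold, adjusted p = 0.00046), and neither was called at P19. The difference of the effects between the ages did not pass for either gene (adjusted p = 0.27 for Vegfa and 0.29 for Gfap). Rod, bipolar and oxidative phosphorylation genes gave 0 calls at P17. The interferon list gave 1 call of 26 at P17, but 24 of its members had a positive change there, with a median log2 of 0.72 beside 0.83 at P19. The test of the difference between the ages called 0 members of these 4 lists.

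The test of the difference between the ages passed for 2 genes (0.00851%), with 2645 at an unadjusted p under 0.05. Of the 2 genes, Ip6k2 was 0.969-fold at P17 and 2.08-fold at P19, a difference in log2 effect of 1.10 (adjusted p = 0.016). For Ndufa4l2 the adjusted p of the difference was 0.058. The number of genes passing was 0 without several single libraries, 152 without anti-ANG2 replicate 4 of P19 or without control replicate 3 of P17, and 414 with DESeq2. The P17 groups were not balanced as those of P19 were. By Xist, all 4 anti-ANG2 retinas of P17 were female, with no Ddx3y count, while Ddx3y stood at 47, 2.84, 0.638 and 31.2 CPM in the P17 controls. Control replicate 4 of P17 held Xist (31 CPM) and Ddx3y at like levels. Of 15 pigment epithelium genes 8 were called higher at P17, and all 16 crystallins were higher at an unadjusted p under 0.05. Their part in the P17 values was not tested beyond the fits named here: with Y-linked counts as a covariate 144 genes were called at P17, and with covariates for pigment epithelium and lens RNA 34.

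**Figure D5:**
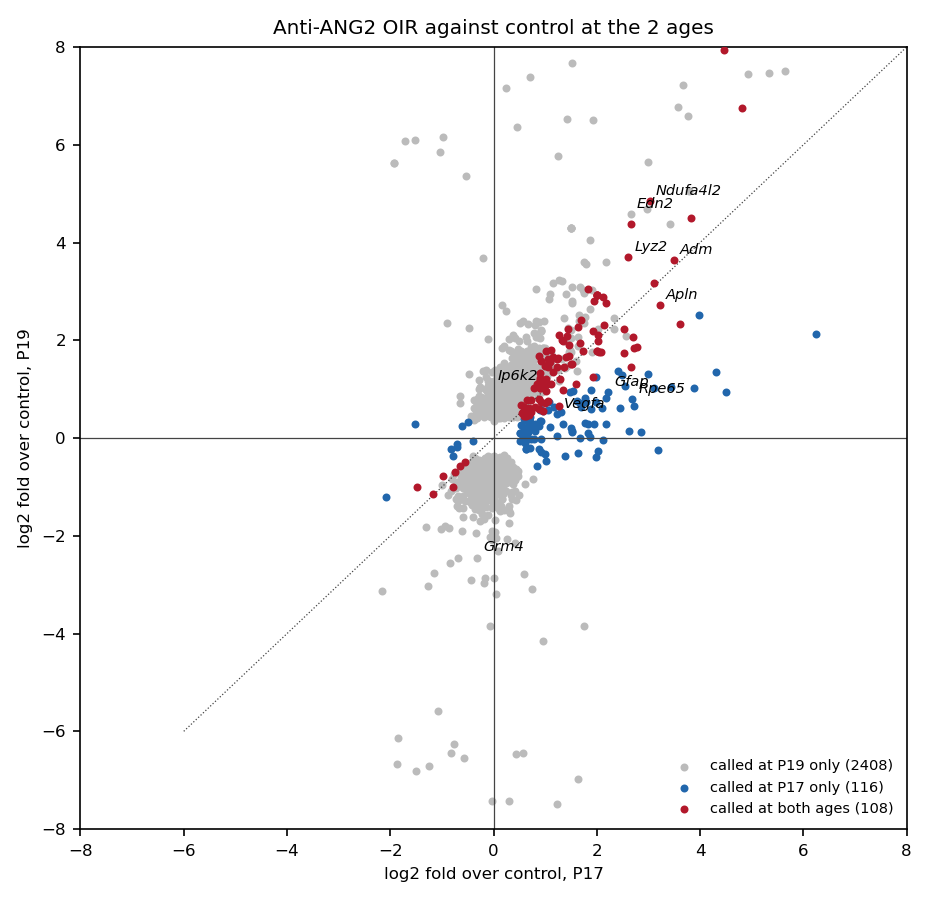
Log2 fold of anti-ANG2 OIR over control at P17 (x axis) and at P19 (y axis) for the genes called at either age; red marks the 108 genes called at both ages, blue the 116 called at P17 and grey the 2408 called at P19. The dotted line marks equal folds, and 2 genes lie outside the axes. Ndufa4l2, Adm, Apln and Lyz2 lie far from 0 at both ages, while Ip6k2 lies away from 0 at P19.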

How the data were processed

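The authors deposited 2 tables of 40 libraries and 42037 gene symbols, 1 of expected counts from RSEM and 1 of TPM values. STAR 2.7.10a, RSEM 1.3.3 and build GRCm38.p4 were used, per the submitters' processing notes, which name no gene annotation. Among expected counts above 0, 15.7% had decimals, and every value was rounded. After edgeR's filter on low counts, applied by group, 23495 genes were tested by quasi-likelihood (edgeR 4.0.16, R 4.3.3, TMM factors, robust, 10 groups, all 40 libraries). Calls were made at a Benjamini-Hochberg adjusted p under 0.05 within its comparison. Folds are the model's, the SE of a log2 fold is its size divided by the square root of F, and CPM are TMM-scaled counts. Gene positions come from the GENCODE annotation of GRCm38, transcript lengths (for 81.9% of the tested genes) from its transcripts and promoters from RefSeq (GRCm38.p6), all matched by symbol. Reads of 1 gene are not independent molecules, so counting intervals cover counting error only.

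Named genes are, per direction, the 10 with the largest fold among called genes whose higher group had a mean of 5 CPM or more, whose libraries did not overlap and whose symbols were proper, up to 4 called members per list with at least 2 called, a fixed set of 23 genes, and, in the other comparisons, the 3 called per direction at the smallest p. Stc2, Bnip3l, Emcn, Kcnj8, C5ar1, Stat2, Pcp2, Pdgfrb and Abcc9 fall outside this rule and were named after their values were seen. Some genes this rule takes are not reported here and are left out of the counts of named genes. The members, the 39 lists and the rule were chosen with earlier results of these data known. The alternatives were RLE factors, no filter, DESeq2 1.42.0, limma 3.58.1 (voom with sample weights, and trend on log2(TPM + 1)), the compared groups alone, the replicate number as a block, covariates for Y-linked counts, pigment epithelium and lens RNA or mitochondrial share, and leaving out each library. The offset for transcript length was added after seeing the data. Simulated counts with known changes served to test the edgeR code.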

Additional observations from a re-analysis of the deposited data

Results flagged for a closer look

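Of 246 groups of 4 retinas (123 named genes in the 2 groups compared), 19 held 1 retina that stood apart from the other 3 by more than Dixon's 95% limit, where chance gives about 1 in 20. Among the controls these were Apoe in replicate 1 (1170 CPM, others 1540 to 1600), Esm1 in replicate 1 (1.21 CPM, others 0 to 0.204), Hk2 in replicate 1 (104 CPM, others 82.8 to 85.2), Ccl4 in replicate 2 (0.109 CPM, others 0), Ms4a6d in replicate 2 (1.14 CPM, others 0.446 to 0.509), Kdr in replicate 3 (54.1 CPM, others 97.8 to 101), Lilrb4a in replicate 3 (0.062 CPM, others 0) and Trem2 in replicate 4 (1.43 CPM, others 3.57 to 3.87). Among the anti-ANG2 retinas, replicate 1 stood apart for Ccl12 (6.11 CPM, others 2.45 to 3.05), Evc (2.72 CPM, others 1.32 to 1.49) and Slc17a8 (0.528 CPM, others 3.05 to 3.54). Replicate 2 stood apart for C1qc (83.3 CPM, others 51.6 to 56.1), Egfl7 (19.3 CPM, others 10.3 to 11.5), Nr1d1 (105 CPM, others 82.3 to 85.4), Rpe65 (266 CPM, others 79.2 to 90.3) and S100a6 (27.9 CPM, others 18.9 to 19.7). Replicate 4 stood apart for Lrrn3 (75.5 CPM, others 27.4 to 35.1), Nr1d2 (69.6 CPM, others 56.8 to 58.7) and Tek (4.18 CPM, others 0 to 0.126).

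The effect of anti-ANG2 OIR over control differed between P19 and P17 by an interaction test for Ip6k2 (1.10 on the log2 scale).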

How the results depend on the processing

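The count against control at P19 (2516) was 6363 with limma-trend on log2(TPM + 1), of which 9.92% were higher (65.9% in edgeR), 180 with the mitochondrial share as a covariate (90.0% higher), and 1357 to 3242 without single libraries. It stayed within 1.5 times under the other alternatives (DESeq2 3409, transcript length offset 1736). The count against IgG (23) was 557 with DESeq2, 578 with limma-trend, 1 in the compared groups alone, 1 with the mitochondrial covariate, 45 with the length offset and 5 to 439 without single libraries. The count at P17 (224) was 127 without the filter, 446 with DESeq2, 437 with voom, 409 with limma-trend, 144 with Y-linked counts, 34 with pigment epithelium and lens RNA, 365 with the length offset and 90 to 195 without single libraries. The age difference (2) was 8 with RLE factors, 1 without the filter, 414 with DESeq2, 317 with voom, 92 with limma-trend, 7 in the compared groups alone, 1 with Y-linked counts, 32 with pigment epithelium and lens RNA, 1 with the mitochondrial covariate, 43 with the length offset and 0 to 152 without single libraries. The cause of these moves was not tested.

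The labels number the retinas 1 to 4 in each group. Deviations of same-numbered retinas of the P19 groups from their group means had correlations of -0.037 to 0.098. With 4 retinas a group, such values cannot show whether the numbers pair the retinas. With the replicate block, 2590 genes were called against control at P19, 23 against IgG, 236 at P17 and 10 for the age difference.

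Of the 106 called named genes, 29 were called under all 19 alternatives, 74 lost the call with the mitochondrial covariate, 31 with the length offset, 21 with limma-trend and 33 without some single library. Signs turned for few genes. On the TPM scale the log2 change was -0.11 for Ldha, -0.050 for Pcna, -0.080 for Gnat2, -0.068 for Gng13, -0.089 for Vegfa, -0.021 for Esm1, -0.27 for Cryaa, -0.15 for Xist, -0.28 for Ddx3y and -0.035 for 4930529C04Rik. With the length offset it was -0.22 for Gng13, -0.035 for Npy, -0.085 for Sncg, -0.059 for Mt3, 0.028 for Tek and -0.40 for Cryaa. With the mitochondrial covariate it was 0.50 for Angpt2, 0.68 for Tek, 0.22 for Kdr, 0.039 for Flt1, 0.43 for Plvap and -1.85 for Ddx3y, and with pigment epithelium and lens RNA -0.059 for Xist. Without single libraries the change ran from -0.15 to 0.97 for 4930529C04Rik, -0.90 to 0.87 for Cryaa, -0.63 to 0.77 for Ddx3y, -1.42 to 2.03 for Esm1, -0.245 to 0.16 for Plvap, -4.48 to 0.27 for Tek and -0.89 to 0.84 for Xist. None of these 7 was called against control by edgeR, and 4 retinas a group limit what can be seen for such low or variable genes.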

Other observations

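Further lists gave few calls between anti-ANG2 OIR and control at P19. Over all genes, 7.06% were called higher and 3.65% lower in this comparison. Of 21 cell cycle genes 3 were called higher by edgeR: Pcna, the sliding clamp of DNA replication (1.48-fold, adjusted p = 0.032), the mitosis gene Birc5 (2.94-fold, adjusted p = 0.029) and the mitotic cyclin Ccnb1, at 0.191, 0.0544, 0 and 0.0509 CPM in controls and 5.43, 0, 1.07 and 1.73 CPM in anti-ANG2 retinas (adjusted p = 0.013). The Ccnb1 ranges overlapped, since anti-ANG2 replicate 2 had no count. With the mitochondrial covariate 0 of the 21 were called, and without single libraries 1 to 4. Ccnb1 lost its call without anti-ANG2 replicate 1, the retina with its highest level. Of 14 p53 targets, Bax, which promotes apoptosis, was called higher beside Cdkn1a (1.78-fold, adjusted p = 0.00035), and Mdm2, the ligase that degrades p53, lower (0.719-fold, adjusted p = 0.045). Of 8 horizontal cell genes 2 were called lower, the transcription factor Prox1 (0.563-fold, adjusted p = 0.023) and the medium neurofilament chain Nefm (0.617-fold, adjusted p = 0.035), neither of which is limited to horizontal cells. Neither was called with the length offset or the mitochondrial covariate, and the list gave 0 to 2 calls without single libraries. Bax kept its call without any single library but lost it with the length offset, the mitochondrial covariate and limma-trend on TPM, while Mdm2 lost it without 6 of the 8 libraries. Of 5 tested astrocyte genes 0 were called by edgeR, with 2 higher at an unadjusted p under 0.05, which 22.3% of all genes passed.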
